A study of Rattus norvegicus with 15 samples.

Results

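The genes described here repair the methyl damage that N-nitroso-N-methylurea (NMU) leaves in DNA, together with 1 mismatch repair gene that reads such damage. They were taken by name as a list of 8: MGMT, ALKBH2 and ALKBH3 for direct reversal, MPG, APEX1, XRCC1 and PARP1 for base excision and break repair, and MSH6 for mismatch repair. The table analysed holds 17463 gene symbols, of which 11665 had enough reads to be tested. It gave a row for 7 of the 8 genes, and all 7 were tested. MSH6 was not analysed here.

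NMU is a methylating agent that is widely used to induce mammary tumours in rats. Its best known mutagenic product is O6-methylguanine, which pairs with thymine at replication. MGMT moves that methyl group onto itself and is used up in doing so. If the base is left, mismatch repair, in which MSH6 takes part, recognises the resulting mispair. N-methylated bases take other routes: MPG cuts 3-methyladenine and 7-methylguanine from the sugar, APEX1 cleaves the abasic site, PARP1 senses the strand break and XRCC1 assembles the proteins that close it. ALKBH2 and ALKBH3 are iron-dependent dioxygenases that oxidise the methyl group away from 1-methyladenine and 3-methylcytosine.

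All 15 libraries were made from poly(A) RNA of mammary tumours of NMU-treated Fischer rats. The vehicle group has 6 libraries and the midkine group has 9. Midkine, a heparin-binding growth factor, was given as recombinant rat protein at 300 ug/kg, with 3 injections a week, for 2 weeks before each NMU injection of 50 mg/kg. Both groups are NMU-induced tumours, so no untreated mammary gland enters any comparison. The labels used here give no sex or age and do not say which tumours shared a rat. Titles with a common first number (vehicle 2-1 and 2-2, midkine 3-1 and 3-2, midkine 4-1 to 4-3) may be tumours of 1 animal, so p-values measure only the spread between these libraries.

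Libraries held 4925504 to 8486523 counted reads, with a median of 7252603. Levels are given as CPM, reads scaled to a common library size, and are compared within a gene and not between genes of different length. The epithelial markers EPCAM and KRT8 were read in every library. EPCAM stood at 733.7 to 1033 CPM in vehicle and 364.9 to 1544 CPM in midkine libraries. KRT8 stood at 884 to 1577 and 388.2 to 3757 CPM. Summed over 15 of 16 listed epithelial markers, midkine 1, 3-1, 4-2 and 5 had 2921, 6104, 3583 and 3573 CPM. Vehicle libraries had 6616 to 9287, and midkine 3-2 and 4-3 lay above them, at 14350 and 13530. In midkine 5, 11 fibroblast markers summed to 144800 CPM, where vehicle libraries had 560.4 to 10970. In 4 midkine libraries expression over all tested genes stood apart: the median correlation with the other libraries was 0.790 in midkine 1, 0.801 in midkine 3-2, 0.8504 in midkine 5 and 0.851 in midkine 4-2. The 11 others had 0.911 to 0.948. Midkine 1 also carried 311100 CPM of skeletal muscle transcripts, summed over 9 of 10 listed markers, where vehicle libraries had 317 to 741. In whole tumour RNA, fewer cells of a type and less RNA per cell cannot be told apart.

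None of the 7 genes passed the test between midkine and vehicle tumours. MGMT, ALKBH3 and PARP1 had higher estimates in midkine tumours, and MPG, ALKBH2, APEX1 and XRCC1 had lower ones. The estimates ran from -0.38 for ALKBH2 to 0.54 for ALKBH3 on the log2 scale, with a median of -0.06 beside 0.04 over all tested genes. The background is as bare: edgeR's quasi-likelihood test with Benjamini-Hochberg adjustment over all tested genes called 0% of them at 0.05. At an unadjusted p under 0.05 it marked 1178 genes (10.1%) and none of the 7. DESeq2 called 92 genes (0.676%) of 13607 and limma-voom none, again with none of the 7, while limma-voom marked 602 genes at an unadjusted p under 0.05. Groups that did not overlap at all were found for 2 genes in all (0.0171%) and for none of these 7. A count of 0 among 7 genes is therefore close to what the table gives at large. With library totals alone as the scaling, the median of all genes moved from 0.04 to -0.10, and the share with higher values among genes under 0.05 unadjusted moved from 78.9% to 60.1%. In limma-voom that share was 46.8%, so most such genes were no longer higher in midkine tumours, and the median of all genes was -0.01.

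**Figure D1:**
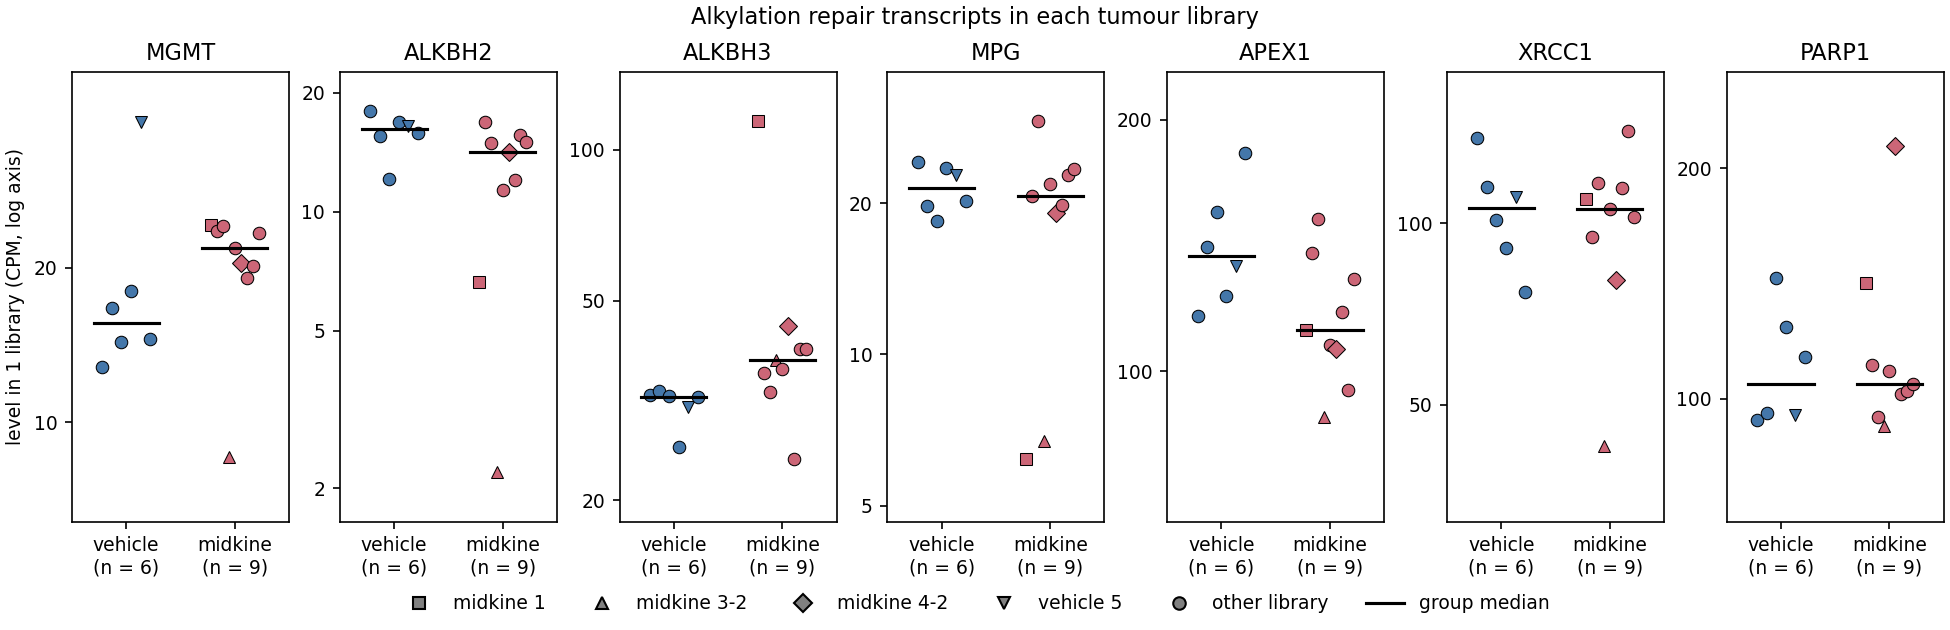
Level of each of the 7 genes in every library, in CPM on a log axis with its own range per gene, for 6 vehicle (blue) and 9 midkine (red) tumours. Black lines are group medians, and 4 libraries have their own symbols. No gene separates the groups, and MPG and ALKBH2 both show midkine 1 and midkine 3-2 far below the rest.

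MGMT, the suicide methyltransferase for O6-methylguanine, stood at 12.8, 15.6 and 38.5 CPM (lowest, median, highest) in vehicle tumours and at 8.55, 21.9 and 24.3 CPM in midkine tumours. The ranges overlapped, with vehicle 5 the highest of all 15 and midkine 3-2 the lowest of all. Midkine over vehicle this came to a log2 fold change of 0.11 (SE 0.27, 95% interval -0.46 to 0.67, adjusted p = 0.930). Leaving out vehicle 5 gave 0.43 (SE 0.22, adjusted p = 0.620), and leaving out midkine 3-2 gave 0.21 (SE 0.22). Scaling by library totals alone turned the sign, to -0.02. On that scale midkine 1, which gave the midkine maximum of 24.3 CPM, had 13.4 CPM, below the lowest vehicle library at 14.5.

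Red blood cell transcripts also varied between these tumours. Summed over 4 of 4 listed erythroid markers, vehicle libraries had 49.7 to 1291 CPM and midkine libraries 39.3 to 1215 CPM, with no marker at 0 in any library. Some extremes fell in the same libraries as those of MGMT: the vehicle maximum was in vehicle 5 and the lowest sum in midkine 3-2. Others did not. The midkine maximum of the sum was in midkine 4-1, which had 21.9 CPM of MGMT. MGMT had its midkine maximum in midkine 1, where the erythroid sum was 302.8 CPM. The vehicle minimum was in vehicle 6 for the sum and in vehicle 2-1 for MGMT. HBB, the beta globin chain, was among the 3 genes whose pattern was most like that of MGMT (r = 0.868 over 15 libraries). These 3 were picked from all tested genes by that same r. Over the 13 libraries without midkine 1 and 3-2, HBB was not among the top 3, with r = 0.825. The part of these cells in the MGMT values was not tested.

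**Figure D2:**
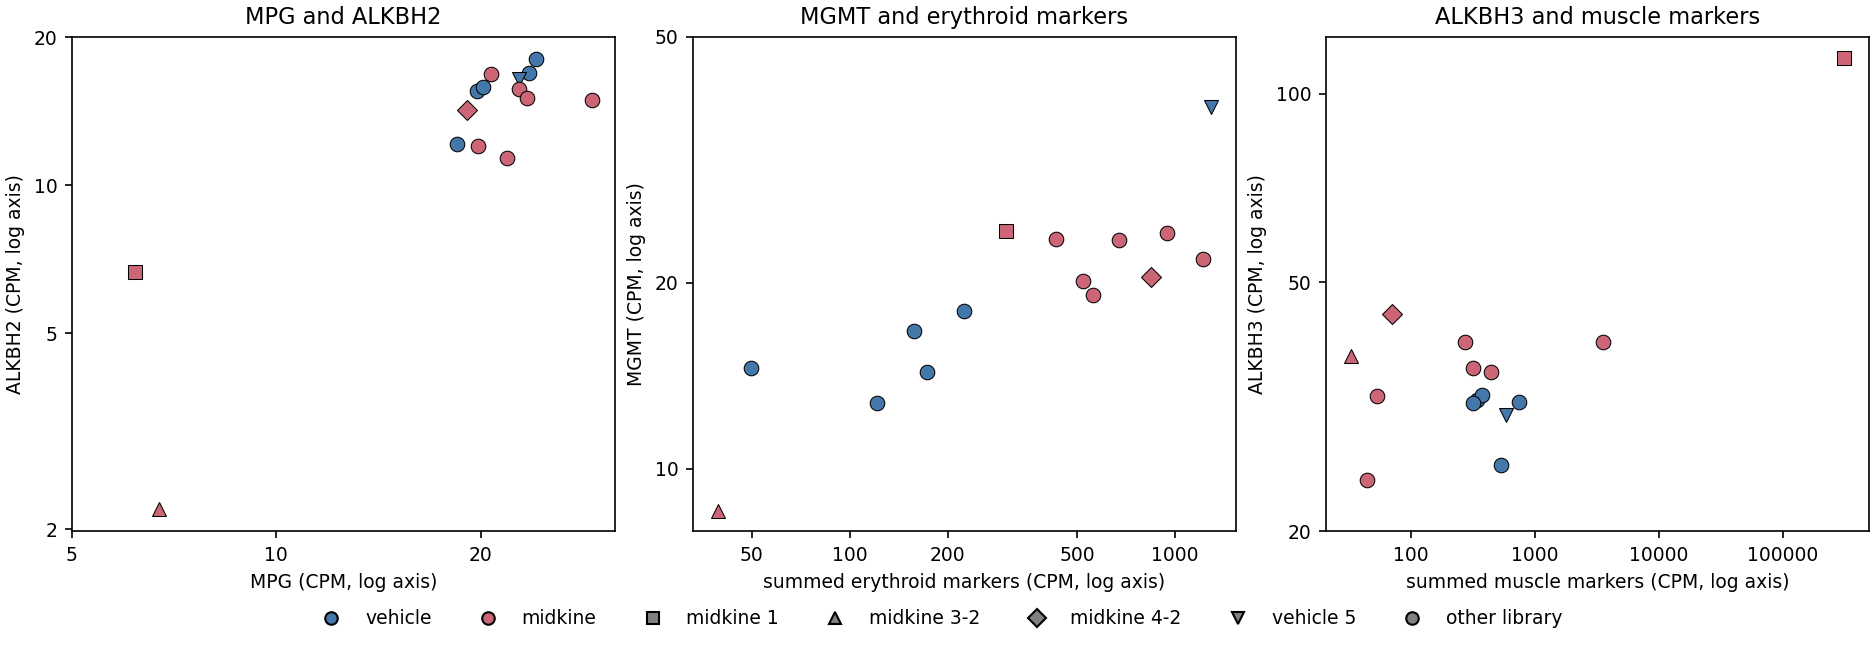
Left, ALKBH2 against MPG; middle, MGMT against the sum of 4 erythroid markers; right, ALKBH3 against the sum of 9 skeletal muscle markers. Each point is 1 library (blue vehicle, red midkine), all axes are CPM on a log scale, and the symbols mark 4 libraries. Midkine 1 and midkine 3-2 sit alone at the low end of the left panel, vehicle 5 and midkine 3-2 at the ends of the middle one, and midkine 1 far from the rest in the right one.

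ALKBH2, the dioxygenase that acts mainly on double-stranded DNA, had 12.1, 16.2 and 18.0 CPM in vehicle tumours and 2.20, 14.2 and 16.8 CPM in midkine tumours. Only 1 midkine library exceeded the vehicle median. Midkine 3-2 gave 18 reads (2.20 CPM, counting interval 1.303 to 3.474) and midkine 1 gave 28 reads (6.67 CPM, 4.43 to 9.64), both below every vehicle library. Intervals of this kind cover counting error alone. Midkine 4-1 and 4-3, at 11.3 and 12.0 CPM, also lay under the lowest vehicle value. On the log2 scale midkine tumours differed from vehicle tumours by -0.38 (SE 0.32, 95% interval -1.06 to 0.29, adjusted p = 0.745), and without midkine 1 and 3-2 it was -0.14 (SE 0.14).

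ALKBH3 prefers single-stranded DNA and also demethylates RNA. Vehicle tumours had 25.6, 32.2 and 33.1 CPM, with 5 of 6 between 30.7 and 33.1. Midkine tumours had 24.2, 38.1 and 114 CPM, and 8 of 9 exceeded the vehicle median. Only midkine 4-3 lay below it, and that library was the lowest of all 15. The top value came from midkine 1, with 479 reads, or 62.9 CPM when scaled by its total alone, still above the vehicle range of 27.5 to 36.7 on that scale. The fitted log2 difference, midkine minus vehicle, was 0.54 (SE 0.27, 95% interval -0.04 to 1.12, adjusted p = 0.540). It was 0.25 (SE 0.14) without midkine 1. Midkine 3-1 to 4-3 had at most 1 read of the muscle myosin MYH4, where vehicle libraries had 688 to 993. No vehicle library lacked it, so this trait is partly confounded with treatment. In the 10 libraries without midkine 3-1 to 4-3 the difference was 0.90 (SE 0.31, adjusted p = 0.407). Midkine 1 weighs more there, since the only other midkine libraries kept are midkine 2, 5 and 6, at 35.9, 40.1 and 40.1 CPM.

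Midkine 1 was thus near opposite ends for the paired dioxygenases, and it was the library with the muscle transcripts named above. Muscle marker sums in the other 8 midkine libraries ran from 32.4 CPM in midkine 3-2 to 3499 CPM in midkine 5, with at most 1 of the 9 markers at 0 in a library. The part of muscle RNA in the ALKBH3 value was not tested.

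MPG, the alkyladenine glycosylase, had 18.4, 21.5 and 24.1 CPM in vehicle tumours and 6.19, 20.7 and 29.2 CPM in midkine tumours. The low end was made by midkine 1 (26 reads, 6.19 CPM, counting interval 4.04 to 9.07) and midkine 3-2 (55 reads, 6.72 CPM, 5.06 to 8.74). The other 7 midkine libraries reached from 19.1 CPM to the maximum in midkine 3-1 and so lay within or above the vehicle range. The edgeR estimate of log2 fold change was -0.18 (SE 0.29, 95% interval -0.80 to 0.43, adjusted p = 0.883). Without midkine 1 and 3-2 it turned to 0.07 (SE 0.13).

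APEX1, the endonuclease that opens abasic sites, had the smallest spread of the 7: the SD of its log2 CPM over 15 libraries was 0.28, smaller than in all but 15.8% of tested genes. Vehicle tumours had 116, 137 and 183 CPM and midkine tumours 88.0, 112 and 152 CPM. Only midkine 2 and midkine 3-1 exceeded the vehicle median, and 5 of 9 midkine libraries lay under the lowest vehicle library. As a log2 fold change the difference was -0.29 (SE 0.14, 95% interval -0.59 to 0.01, adjusted p = 0.515). This was the lowest unadjusted p among the 7, 0.058, and the sign was negative under each of 27 other settings. Pseudogenes of APEX1 are annotated in rat, so reads could be shared between copies.

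XRCC1, the scaffold of single-strand break repair, had 76.9, 106 and 139 CPM in vehicle tumours and 42.6, 106 and 143 CPM in midkine tumours. The group medians were nearly equal. Midkine 3-2 alone lay below the vehicle range and midkine 5 alone above it. The estimated log2 difference was -0.06 (SE 0.21, 95% interval -0.50 to 0.38, adjusted p = 0.950), and it was 0.04 without midkine 3-2.

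PARP1, which marks DNA breaks with poly(ADP-ribose), had 93.8, 105 and 144 CPM in vehicle tumours and 92.2, 105 and 214 CPM in midkine tumours. The medians were again nearly equal. Midkine 4-2 stood above all the others, the next value being 144 CPM in vehicle 3. Midkine 4-2 also had the highest sum of 12 T and NK cell markers, 1710 CPM, where vehicle libraries had 44.3 to 109 and the lowest midkine library 42.3, with none of the 12 markers at 0 in any library. The next highest sum, 699.6 CPM, was in midkine 3-2, the library with the lowest PARP1. Midkine 4-2 was also the highest for 12 macrophage markers, at 3481 CPM, and for 4 of 6 listed B and plasma cell markers, at 455.6 CPM. The part of those cells in the PARP1 value was not tested. Between the groups the log2 fold change stood at 0.10 (SE 0.19, 95% interval -0.30 to 0.50, adjusted p = 0.904), and it was -0.05 (SE 0.14) without midkine 4-2.

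**Figure D3:**
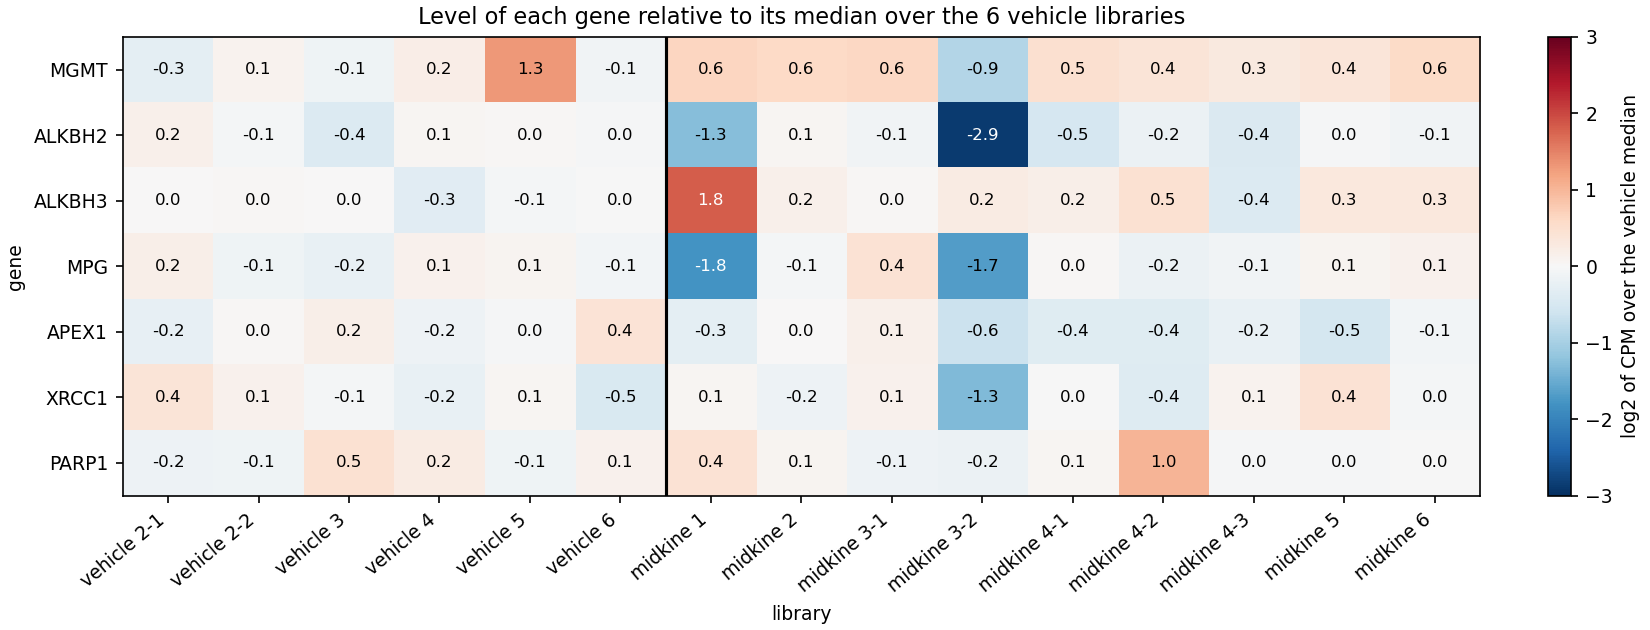
Log2 of each library's CPM over the median of the 6 vehicle libraries, for 7 genes (rows) and 15 libraries (columns, vehicle left of the line). Blue is lower and red higher than the vehicle median. The 4 cells farthest from the vehicle median are ALKBH2 and MPG in midkine 3-2, both below it, and in midkine 1 MPG below it and ALKBH3 above it.

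Most of the lowest values came from 1 library. Midkine 3-2 was the lowest of 15 for 5 of the 7 genes (71.4%), namely MGMT, ALKBH2, APEX1, XRCC1 and PARP1, and the next to lowest for MPG. For PARP1 and APEX1 the margin was within counting error. PARP1 had 92.2 CPM (counting interval 85.7 to 99.0) beside 93.8 CPM in vehicle 2-1. APEX1 had 88.0 CPM (81.7 to 94.7) beside 94.9 CPM (87.0 to 103.3) in midkine 5. Midkine 3-2 was the lowest for 32 of the 64 other repair genes (50.0%) and for 3220 of all 11665 tested genes (27.6%). It was also the highest for 2398 tested genes (20.6%) and for none of the 7. Its DNA replication and mitosis scores were the lowest of the 15, at 3.73 and 3.32 mean log2 CPM beside vehicle ranges of 4.26 to 5.71 and 4.27 to 6.51. The part of proliferation or of cell makeup in these low repair values was not tested.

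No other gene of the same repair routes passed the test. Over 5 lists of direct reversal, base excision, mismatch repair, the ATR checkpoint and translesion synthesis, 71 of 80 listed genes were tested and none passed, while 1 had an unadjusted p under 0.05 (10.1% of all tested genes did). Estimates were higher in midkine tumours for 27 and lower for 44, beside 6494 higher and 5171 lower over all tested genes. Midkine 3-2 was the lowest library for 50.0% of the other repair genes, as given above. Its part in these counts was not tested. Without the 7, the median log2 fold change of the remaining 64 was -0.05, and they ranged from -0.46 to 0.35.

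By list, the median was 0.06 for 6 direct reversal genes, -0.06 for 25 base excision genes, -0.05 for 21 mismatch repair genes, -0.17 for 8 ATR checkpoint genes and -0.02 for 12 translesion genes. In direct reversal, ASCC3, the helicase partner of the ALKBH3 complex, had 0.19 (SE 0.23), and its companion subunit ASCC1 had -0.08 (SE 0.16). Both estimates rest on midkine 3-2, without which they were 0.0091 and -0.00024. In base excision, UNG, the uracil glycosylase, had the smallest p of the 71: in the 6 vehicle tumours its mean and SD were 47.2 ± 8.69 CPM, against 34.2 ± 9.53 CPM in the 9 midkine tumours. For UNG edgeR put the log2 fold change at -0.46, with an SE of 0.20 and an adjusted p of 0.452. PARP3, a relative of PARP1, had 0.34 (SE 0.23), and 0.21 without midkine 1.

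In mismatch repair, RPA1, the large subunit of the single-strand binding protein, had 0.23 (SE 0.20), and MLH3, a MutL homologue, had -0.20 (SE 0.18), and -0.13 without midkine 3-2. Among checkpoint genes, HUS1, a subunit of the 9-1-1 clamp, had -0.43 (SE 0.25) and the kinase CHEK1 -0.41 (SE 0.33). Without vehicle 2-1 HUS1 had -0.26, and without vehicle 3 CHEK1 had -0.18. Among translesion genes, MAD2L2, a subunit of polymerase zeta, had -0.26 (SE 0.16) and UBE2A, the ubiquitin-conjugating partner of RAD18, had 0.23 (SE 0.15). Of these 10 genes, UNG alone had an unadjusted p under 0.05.

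**Figure D4:**
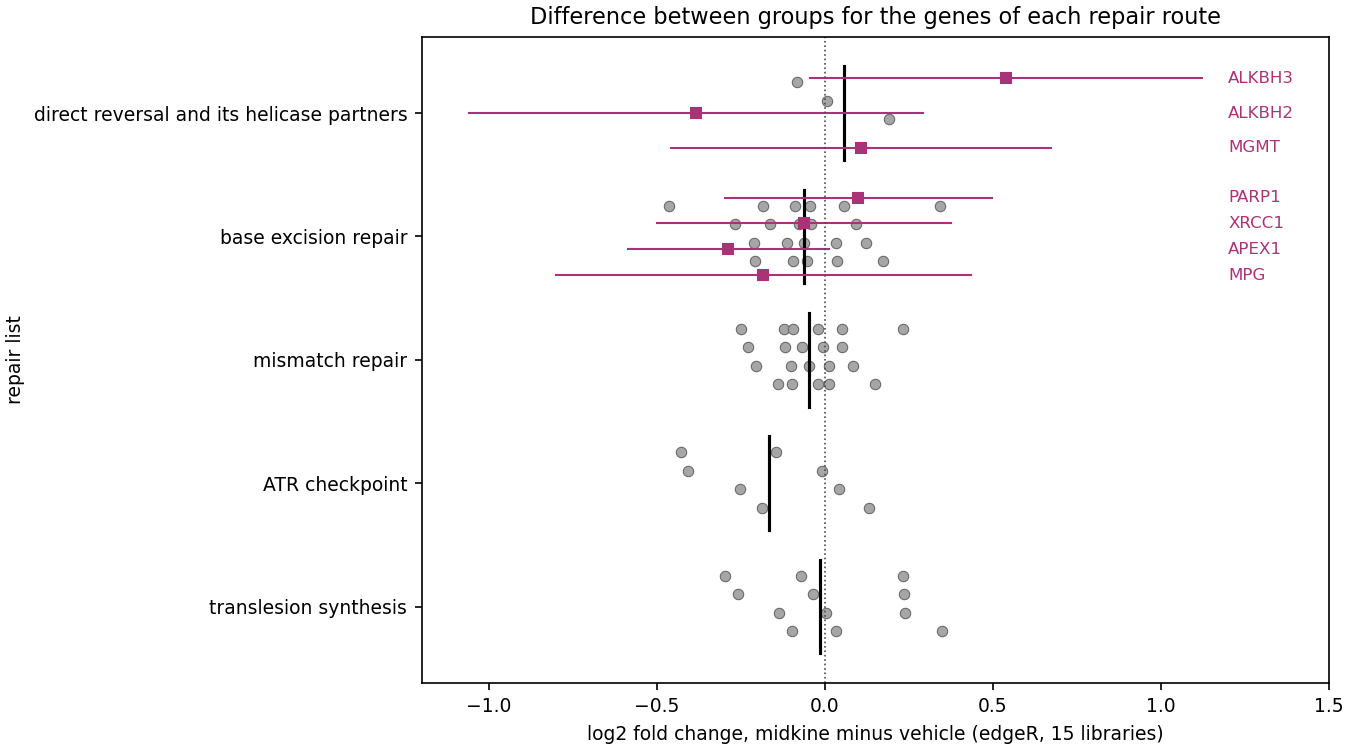
Log2 fold change of midkine over vehicle (edgeR, 15 libraries) for the tested genes of 5 repair lists. Grey points are other genes of each list, spread vertically for legibility, purple squares with 95% intervals are the 7 described genes, and black lines are list medians. All 7 intervals include 0, and list medians lie between -0.17 and 0.06.

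Ratios of paired genes within a library need no scaling between libraries and were compared by exact two-sided permutation over all 5005 assignments of the libraries, with adjustment over 3 ratios. The ratio of ALKBH2 to ALKBH3 differed most. Its log2 value was -1.41, -0.96 and -0.60 (lowest, median, highest) in vehicle tumours and -4.08, -1.42 and -1.004 in midkine tumours. All 9 midkine libraries lay below the vehicle median, and midkine 1 and 3-2 lay far below the rest. The group means differed by -0.97, a ratio of 0.512, with exact p = 0.0799 and adjusted p = 0.240. Without midkine 1 and 3-2 the difference was -0.36 (exact permutation, adjusted p = 0.122), and in the 10 libraries other than midkine 3-1 to 4-3 it was -1.01 (adjusted p = 0.0571).

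The other ratios differed less. MPG to APEX1, the glycosylase against the next enzyme of its route, had a log2 difference of -0.04 (exact p = 0.889), and 0.29 without midkine 1 and 3-2. PARP1 to XRCC1 had 0.17 (exact p = 0.590, adjusted p = 0.886), with midkine 4-2 the highest at 1.404. With 1 library left out at a time its difference ran from 0.024 (without midkine 4-2) to 0.27 (without vehicle 6), and it was 0.061 without midkine 3-2.

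**Figure D5:**
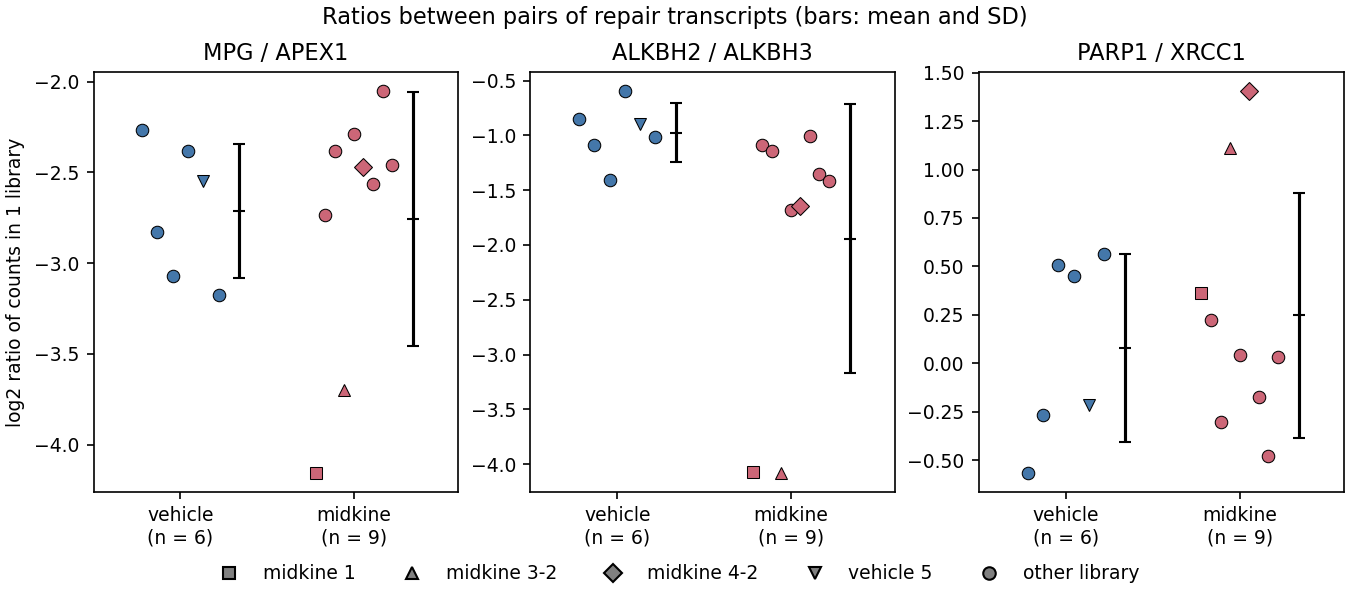
Log2 ratio of counts of paired genes in each library, with 0.5 added to each count, for 6 vehicle (blue) and 9 midkine (red) tumours. Bars give the group mean and SD, and the symbols mark 4 libraries. For ALKBH2 over ALKBH3 all midkine points lie at or below -1.004, with midkine 1 and midkine 3-2 near -4.08.

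Among themselves, the 7 genes gave 21 pairs, of which none passed a permutation test after adjustment, while 6 passed with library totals alone as the scaling. MPG and ALKBH2 came nearest, with r = 0.87 (permutation p = 0.00276, adjusted p = 0.058) and rho = 0.66 (permutation p = 0.009, adjusted p = 0.189) over 15 libraries. Within groups r was 0.87 in the 6 vehicle and 0.86 in the 9 midkine libraries. Without midkine 1 and 3-2, the libraries farthest from the median, the pooled r was 0.38. The size of the pooled r thus rests on them. Both are midkine libraries, so the r in midkine tumours includes them and the r in vehicle tumours could not. Neither r within a group was tested. ALKBH2 and XRCC1 had r = 0.71 (permutation p = 0.0332, adjusted p = 0.205, rho = 0.19), and 0.09 without the same libraries. MPG and ALKBH3 had r = -0.68 (permutation p = 0.0241, adjusted p = 0.205, rho = -0.33), and -0.04 without them.

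Repair transcripts were also set against the mean log2 CPM of DNA replication, epithelium and macrophage lists, 21 relations in all. None of the 7 genes passed for DNA replication, and 2 did without vehicle 3. MPG had r = 0.63 (permutation p = 0.0101, adjusted p = 0.106, rho = 0.25) and ALKBH2 r = 0.59 (permutation p = 0.0158, adjusted p = 0.110, rho = 0.23). In vehicle tumours the same r was -0.26 and -0.63, and in midkine tumours 0.83 and 0.84. Over all libraries but midkine 1 and 3-2 it turned to -0.25 for MPG and -0.33 for ALKBH2, so the pooled relations rest on those libraries.

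The 1 relation past the threshold was ALKBH3 with the epithelium score, at r = -0.68 (permutation p = 0.00191, adjusted p = 0.040). Its rank correlation was rho = -0.44 (permutation p = 0.105, adjusted p = 0.556). Without midkine 1 and midkine 5, the libraries farthest from the median score, r was -0.44, and without midkine 1 and 3-2 it was -0.66. Within groups it was 0.64 in the 6 vehicle and -0.70 in the 9 midkine libraries, so the relation did not hold in both.

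The genes most like each of the 7 by Pearson r of log2 CPM over 15 libraries are given as a description. For MGMT they were LOC100134871, RPL35AL1 and HBB (0.887, 0.884 and 0.868). The first of each of the others was FBXL6 for MPG (0.948), TRIL for ALKBH2 (0.949), MOB2 for ALKBH3 (0.940), ETV5 for APEX1 (0.870), GMPPA for XRCC1 (0.929) and ZFP472 for PARP1 (0.871). None of the 21 top genes was also a top gene over the 13 libraries without midkine 1 and 3-2. For TRIL the value fell to 0.506 in those 13, while for ETV5 and ZFP472 it was 0.821 and 0.862.

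The promoters of MPG and ALKBH2, which were low in the same libraries, are shown as a description. The part of these sequences in the low values was not tested. The bases run from 250 to 61 before the start of the RefSeq gene model on build GRCr8, 5′ to 3′ on the gene's own strand, and capitals mark motif matches on either strand. MPG lies on the minus strand, chr10:15906985-15907174, and ALKBH2 on the plus strand, chr12:48156604-48156793.
MPG: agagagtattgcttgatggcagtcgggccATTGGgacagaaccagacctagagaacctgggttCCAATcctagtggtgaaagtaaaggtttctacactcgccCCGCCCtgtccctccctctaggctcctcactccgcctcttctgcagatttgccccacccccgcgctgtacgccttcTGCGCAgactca
ALKBH2: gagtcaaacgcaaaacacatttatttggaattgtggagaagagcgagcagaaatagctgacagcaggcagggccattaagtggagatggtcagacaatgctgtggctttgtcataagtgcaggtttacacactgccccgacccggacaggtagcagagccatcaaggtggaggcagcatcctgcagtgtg
The MPG stretch holds 4 matches: CCAAT boxes (CCAAT) in both orientations, a GC box (GGGCGG, here as its reverse complement) and an NRF1 core (TGCGCA). The ALKBH2 stretch holds 0, since its matches lie nearer to the start.

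Windows of 300 bases, from 250 before to 50 after the start, were searched for these motifs, for an ETS core (CTTCCGG) and for an E box (CACGTG). Matches were counted for each motif on its own, whether or not they overlapped one of another motif. All 8 genes matched a RefSeq window, of 33469 in all. Their GC content was 59.7% to 72.3% (median of all windows 51.7%), and their CpG ratio, observed over expected, was 0.64 to 1.00 (median 0.39). The ETS core was in the windows of MGMT, MPG and ALKBH2 and in 8.7% of all windows. A GC box was in those of MGMT, MPG, ALKBH2, APEX1, PARP1 and MSH6 and in 33.1% of all. APEX1 held 3 E boxes and XRCC1 3 NRF1 cores, motifs found at least once in 6.4% and 7.2% of all windows. CCAAT boxes, in 37.5% of all, were in those of MPG, ALKBH3, APEX1 and MSH6. The shares over all windows were not matched to these genes for GC content or CpG ratio, so they do not show whether a motif is enriched. A match is a string of letters and no measure of binding.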

How the data were processed

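The deposited values are raw read counts, whole numbers per gene symbol in a single table, per the file headers. Build rn6 is named in the submitters' processing notes. The deposited table's own name credits the counts to the aligner STAR; no source used here gives its version, the strandedness, the annotation or the counting rule. Without the strand, reads of antisense genes cannot be told apart. Samples were grouped by the treatment label. Counts were tested in R 4.3.3 with edgeR 4.0.16 (expression filter by group, TMM scaling, quasi-likelihood F test, Benjamini-Hochberg over 11665 genes, threshold 0.05), and checked with DESeq2 1.42.0 and limma-voom 3.58.1. The procedures were tested on simulated data. Log2 CPM used a prior count of 2. Correlations used 100000 permutations and ratios exact permutation. Counting intervals are exact 95% Poisson intervals.

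The genes and the lists were chosen with earlier results of these data known. Named beside them were, from each repair list, 2 genes of smallest p (the rule allowed up to 4) and the 3 genes of highest r per gene. MSH6 was not analysed here, so 2 planned ratios with it were not run. 1 gene of the naming rule is not reported here. Every 2 libraries of a group differed by more than sampling noise, with a chi-square over its degrees of freedom of 20.25 or more. Alternatives covered tests, scaling, filters, left-out libraries, title numbers and ratio settings. Promoter sequences are from RefSeq, build GRCr8, matched by symbol; no genome of build rn6 was used here.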

Additional observations from a re-analysis of the deposited data

Results flagged for a closer look

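Of 20 sets of levels examined (7 genes and 3 ratios, each in both groups), 5 held 1 library far from the others by Dixon's criterion. For independent, normally distributed values chance meets it in about 1 of 20, but these sets share libraries. The criterion looks for 1 far library and can miss 2 on the same side. MPG and ALKBH2, both low in midkine 1 and 3-2, were not flagged. MGMT stood at 38.46 CPM in vehicle 5, with 18.01 CPM in the next vehicle library, and at 8.547 CPM in midkine 3-2, with 19.1 CPM in the next midkine library. ALKBH3 stood at 114 CPM in midkine 1, with 44.5 CPM next, and at 25.56 CPM in vehicle 4, with 30.73 CPM next. PARP1 stood at 213.6 CPM in midkine 4-2, with 141.7 CPM next among midkine libraries.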

How the results depend on the processing

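Under all alternatives run, 0 of the 7 genes and 0 of the 71 repair list genes passed the threshold in edgeR, DESeq2 or limma-voom. ALKBH2, APEX1, UNG, HUS1, CHEK1, MAD2L2 and MLH3 stayed negative and ALKBH3, PARP3, RPA1 and UBE2A positive in every setting, as log2 fold changes. Where signs turned, the cause was not tested. With library totals alone MGMT had -0.021 and PARP1 -0.042, and 6 of the 21 pairs correlated instead of 0. In the 10 libraries other than midkine 3-1 to 4-3, XRCC1 had 0.10, ASCC3 -0.065, ASCC1 0.034 and the log2 ratio of PARP1 to XRCC1 -0.042. With libraries of a title number joined, XRCC1 had 0.044 and PARP1 to XRCC1 -0.015. Chosen after seeing the data, leaving out midkine 1 and 3-2 gave 0.071 for MPG, 0.043 for XRCC1, 0.048 for ASCC1 and 0.29 for MPG to APEX1. Leaving out midkine 1, 3-2, 4-2 and 5, likewise chosen, gave 0.10 for MPG, 0.020 for XRCC1, 0.091 for ASCC1, 0.23 for MPG to APEX1, -0.092 for PARP1, -0.13 for ASCC3 and -0.11 for PARP1 to XRCC1.

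Leaving out 1 library at a time gave -0.14 to 0.039 for XRCC1, -0.052 to 0.18 for PARP1, -0.14 to 0.13 for MPG to APEX1, and 0 to 2 genes correlated with DNA replication (2 without vehicle 3). Title numbers showed no pairing in expression: deviations of same-numbered vehicle and midkine libraries correlated at -0.24 to 0.14. Such values cannot exclude that equal numbers mark pairs, since a pair need not share its expression. With the replicate block, 0 genes passed, 323 instead of 1178 had an unadjusted p under 0.05, and PARP1 had -0.050. The 2 ratios with MSH6 were not run. Depth limits ALKBH2 and MPG most, at 18 and 26 reads in their lowest libraries.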

Other observations

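UNG, the uracil glycosylase, is the neighbour of ALKBH2 in the rat genome and lies on the opposite strand, with UNG on the minus and ALKBH2 on the plus strand of build GRCr8. The pair was picked after the values had been seen. Their log2 CPM moved together over the 15 libraries, with r = 0.80 (permutation p = 0.00231) and rho = 0.66 (permutation p = 0.00984). Without midkine 3-2 and vehicle 6, the libraries farthest from the median, r was 0.49, and without midkine 1 and 3-2 it was 0.39. UNG was lowest in midkine 3-2, at 16.2 CPM, the library that was also lowest for ALKBH2.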
